A study of Mus musculus with 4 samples.

Results

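The cytochrome P450 genes were examined for binding of PPARγ in mouse alveolar macrophages (AMs). Members were the protein-coding genes whose symbol is Cyp followed by a number, a letter and a number, as in Cyp4f18, with Cyp27a1 left aside. These were 91 of 20923 protein-coding genes on chromosomes 1 to 19 and X. Of them, 11 had the nearest transcription start site (TSS) to at least 1 region bound in both libraries, and they shared 17 of 20233 such regions. The 11 marked genes were Cyp4f13, Cyp4f16, Cyp4f18, Cyp4f37, Cyp4v3, Cyp26b1, Cyp2r1, Cyp7b1, Cyp17a1, Cyp2s1 and Cyp2w1.

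AMs are the macrophages of the airspaces, and the cells were collected from lungs of adult wild-type C57BL/6J mice by bronchoalveolar lavage and flow sorting. HT-ChIPmentation, in which a transposase tags antibody-bound chromatin on the beads, was run with a PPARγ antibody in 2 ChIP libraries, called library 1 and library 2. They make up a single group without a contrast, and the labels do not say whether separate animals were used. A consensus region is a stretch where peaks of both libraries overlap by at least 1 bp. Library 1 held 83787 peaks and library 2 held 28535, and read depth is not given in the lists. Binding says nothing of RNA levels, and the cell label was not checked here. Of the macrophage genes looked at, regions were nearest to Pparg itself (12 regions), Marco (8), Car4 (7) and Itgax (5). Over all protein-coding genes, 31.6% had a region, and 24.4% of those had 4 or more, so these counts do not identify the cells.

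Cytochromes P450 are haem enzymes that insert oxygen into small lipophilic molecules. Some make or clear signalling lipids such as steroid hormones, bile acids, vitamin D, retinoic acid and eicosanoids, and others, abundant in liver, oxidise drugs and pollutants. Most draw electrons from cytochrome P450 reductase in the endoplasmic reticulum, and the mitochondrial ones from ferredoxin. PPARγ is a nuclear receptor that senses fatty acids and their oxidised products, the kind of molecule that many P450 enzymes make or break down. It binds DNA with RXR at a direct repeat of the hexamer AGGTCA spaced by 1 base, called DR1.

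The sequences at the summits of 8 of the 17 regions are shown. They include the best-ranked windows of Cyp4f37, Cyp26b1 and Cyp4f18, the promoter window of Cyp4v3 and the intron 1 window of its lowest-ranked region. The rest are the windows with a DR1-like match and the Cyp7b1 window, which holds matches to 3 other patterns. Each is the mm10 plus strand from 75 bp before to 75 bp after the library 1 summit. Capitals mark matches on either strand to the hexamer AGGTCA, PU.1 (GAGGAAGT), C/EBP (TTGCNNAA), RUNX (TGTGGT), AhR (GCGTG), KLF/SP (GGGCGG) and DR1 with up to 2 mismatches. Some of the shown windows were chosen for their matches. Among those not shown, the windows of Cyp2w1, Cyp2s1, Cyp2r1, the lower-ranked Cyp4f37 region and the Cyp4v3 region at chr8:45331227-45331685 hold no match.
Cyp4f37, best-ranked region (chr17:32608196-32608346): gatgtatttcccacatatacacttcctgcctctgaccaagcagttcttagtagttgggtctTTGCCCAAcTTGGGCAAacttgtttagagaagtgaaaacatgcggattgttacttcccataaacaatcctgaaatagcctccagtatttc
Cyp26b1, best-ranked region (chr6:84544437-84544587): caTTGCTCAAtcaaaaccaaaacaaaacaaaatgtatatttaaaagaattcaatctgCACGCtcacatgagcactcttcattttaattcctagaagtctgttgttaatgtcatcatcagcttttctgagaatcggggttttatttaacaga
Cyp4f18, intron 2 (chr8:72008473-72008623): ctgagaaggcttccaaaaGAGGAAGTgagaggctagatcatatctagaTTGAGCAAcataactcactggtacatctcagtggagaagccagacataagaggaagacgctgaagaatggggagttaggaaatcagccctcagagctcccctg
Cyp4v3, intron 1 (chr8:45330956-45331106): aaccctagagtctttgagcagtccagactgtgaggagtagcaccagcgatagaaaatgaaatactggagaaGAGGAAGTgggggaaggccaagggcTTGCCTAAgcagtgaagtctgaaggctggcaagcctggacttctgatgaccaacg
Cyp4v3, promoter (chr8:45333157-45333307): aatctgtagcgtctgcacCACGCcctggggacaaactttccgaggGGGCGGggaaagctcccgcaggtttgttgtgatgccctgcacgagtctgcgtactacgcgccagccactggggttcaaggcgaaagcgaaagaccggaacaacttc
Cyp4f16, intron 2 (chr17:32537705-32537855): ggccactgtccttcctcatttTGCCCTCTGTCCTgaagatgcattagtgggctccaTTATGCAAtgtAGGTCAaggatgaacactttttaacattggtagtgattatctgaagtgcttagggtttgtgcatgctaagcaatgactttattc
Cyp7b1, upstream (chr3:18319515-18319665): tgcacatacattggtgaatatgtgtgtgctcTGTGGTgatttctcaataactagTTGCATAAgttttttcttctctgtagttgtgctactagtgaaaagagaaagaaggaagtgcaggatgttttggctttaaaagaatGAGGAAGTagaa
Cyp26b1, lower-ranked region (chr6:84531558-84531708): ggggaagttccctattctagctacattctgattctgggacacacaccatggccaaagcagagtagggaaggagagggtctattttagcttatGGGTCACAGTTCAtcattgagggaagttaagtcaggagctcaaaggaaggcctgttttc

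The best-ranked Cyp4f37 window holds a pair of C/EBP matches separated by 1 base and facing each other. The Cyp4f18 window, the shown intron 1 window of Cyp4v3 and the Cyp7b1 window each hold a PU.1 match and a C/EBP match. That Cyp4v3 window belongs to the lowest-ranked of the 17 regions (rank 18711, 3.01-fold in library 1). The window of the best-ranked Cyp4v3 region, also in intron 1 and not shown, holds a PU.1 match and no C/EBP match. The Cyp4f16 window holds a DR1-like match on the minus strand (chr17:32537726-32537738), a C/EBP match and the hexamer. The lower-ranked Cyp26b1 window holds a DR1-like match on the plus strand (chr6:84531650-84531662), centred 23 bp from the library 1 summit. The library 2 summit of that region, at position 84531502, lies 131 bp from the library 1 summit, on the side away from the match. The Cyp4v3 promoter window holds an AhR core and a KLF/SP match and none of the other patterns.

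Counted within 100 bp of the library 1 summit, PU.1 matches were found in 4 of the 17 regions (23.5%), against 6.83% of all 20233 regions in windows of the same length. C/EBP matches were found in 6 (35.3%), against 15.1%. RUNX matches were found in 4 (23.5%), against 19.8%, and AhR cores in 4 (23.5%), against 14.9%. KLF/SP matches were found in 2 (11.8%), against 10.6%. The hexamer alone was found in 1 region (5.88%), against 14.9%. No Cyp region held a match to AP-1 (TGANTCA), against 9.98%, to the E-box (CACGTG), against 4.33%, or to the stricter C/EBP pattern (TTGCGNAA), against 0.944%. DR1 without a mismatch or with 1 was found in none, against 0.0643% and up to 0.786% of all regions, and with up to 2 mismatches in 2 (11.8%), against 4.57%. Around the library 2 summit the PU.1 share was 11.8%, against 5.96%, the C/EBP share 17.6%, against 14.5%, and the AhR share 5.88%, against 14.5%. Within 50 bp of the library 1 summit the PU.1 share was 5.88%, against 3.90%, and the AhR share 5.88%, against 7.64%. In windows of 501 bp around it the hexamer share was 29.4%, against 30.2%, the AP-1 share 17.6%, against 18.5%, the E-box share 11.8%, against 8.96%, the AhR share 23.5%, against 31.8%, and the KLF/SP share 17.6%, against 20.4%. The low hexamer, AP-1 and E-box counts were thus not seen in the wider window, and for AhR and KLF/SP the direction turned. The PU.1 and C/EBP shares lay above those of all regions in each of these windows, at 29.4%, against 10.6%, and 47.1%, against 27.6%, in the widest. For DR1 with up to 2 mismatches the share around the library 2 summit was 5.88%, close to the 5.002% of all regions. Around the library 1 summit it was 5.88%, against 2.33%, within 50 bp and 17.6%, against 9.40%, in the widest window. All these windows are drawn from the same 17 regions, so they are not independent of each other. With 17 regions, 1 region is 5.88%, so these shares are descriptions. A match is not a bound site, and the looser patterns contain the stricter ones.

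Few Cyp genes were marked by binding in both libraries. A consensus region was nearest to 11 of 91 Cyp genes (12.1%, 95% Wilson interval 6.89 to 20.4%), against 31.6% of all protein-coding genes. In library 1 alone, 25 of 91 Cyp genes had a peak (27.5%, 19.4 to 37.4%), against 60.6%. In library 2 alone, 12 of 91 had one (13.2%, 7.71 to 21.6%), against 34.9%. Peaks were absent from both lists for 65 Cyp genes, while 14 had peaks of library 1 without a consensus region, and 1 had a peak of library 2 only. That gene was Cyp2j9, named here after its value was seen, with a 4.52-fold peak. When only peaks of 5-fold or more were merged, 5 of 91 Cyp genes had a region (5.49%), against 22.7% of all genes. The intervals cover counting error over genes, and neighbouring Cyp genes are not independent of each other.

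The stretch of genome nearest to a gene's TSSs sets how many regions it can collect. This stretch had a median of 68.4 kb for Cyp genes and 48.8 kb for all genes, and a mean of 80.6 kb and 125.9 kb, so the median and the mean differ in opposite directions. Per Mb of that sequence there were 2.32 consensus regions for Cyp genes and 7.68 for all genes. For the 11 marked Cyp genes there were 11.1 per Mb, a value fixed in part by choosing genes with a region. The median distance from a Cyp TSS to the closest consensus region of any gene was 149.6 kb, against 49.1 kb for all genes. Such a region lay within 10 kb for 7 Cyp genes (7.69%), against 30.3%, and more than 100 kb away for 54 (59.3%), against 36.7%.

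**Figure D1:**
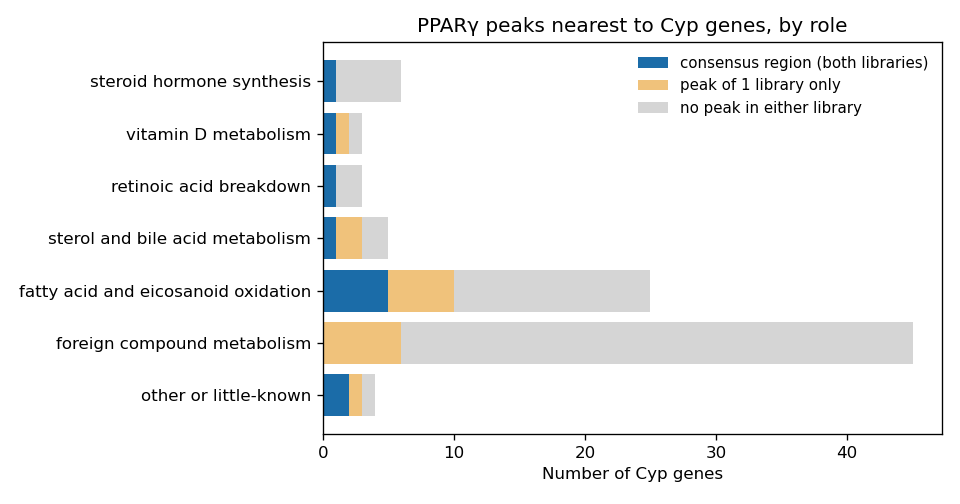
Number of Cyp genes (horizontal axis) by role, split into genes with a consensus region, with a peak of 1 library only and without any peak. All 45 foreign compound genes lack a consensus region, and 39 of them lack any peak. The fatty acid and eicosanoid genes hold 5 of the 11 marked genes.

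The genes that oxidise fatty acids and eicosanoids held 10 of the 17 regions. Of these 25 genes (the Cyp4 family, Cyp2j and Cyp2u1), 5 were marked (20%), against 31.6% of all protein-coding genes. Among the 45 genes for foreign compounds (families Cyp1 and Cyp3 and subfamilies Cyp2a to Cyp2g) none was marked and 6 had a library 1 peak. Roles were set by subfamily and overlap in part. Cyp2c, counted here with 15 genes, includes arachidonic acid epoxygenases, and Cyp2s1, counted as other, also oxidises eicosanoids. Steroid hormone synthesis had 1 marked gene of 6, vitamin D metabolism 1 of 3, retinoic acid breakdown 1 of 3, and sterol and bile acid metabolism 1 of 5. Of 4 other or little-known genes, 2 were marked. These groups of 3 to 6 genes are too small to set against the 31.6% of all genes, and the role groups were not tested against each other.

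Cyp4f18, an enzyme of neutrophils and other myeloid cells that oxidises the chemoattractant leukotriene B4, carried 2 regions in its intron 2 of 12. The region at chr8:72007576-72008809, centred 1434 bp after the TSS, had a fold enrichment over input of 10.6 in library 1 and 7.31 in library 2. The region at chr8:72005716-72006509, centred 3514 bp after the TSS, had 13.2-fold in library 1 and 5.27-fold in library 2. The latter is the highest library 1 value of the 17 regions, while its library 2 value lay just under the library 2 median of all regions (5.35). Summits of the libraries were 22 and 32 bp apart in these regions. The other 7 library 1 peaks nearest to Cyp4f18 had no library 2 peak on them, among them one of 5.63-fold over exon 2 and one of 6.22-fold just before the TSS. A further library 2 peak of 4.24-fold, 27.9 kb after the TSS, had no library 1 partner. Olfr372 is the next gene, 49.5 kb from the best region.

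Cyp4v3, the mouse counterpart of the human fatty acid hydroxylase gene mutated in Bietti crystalline dystrophy, had 4 regions, the most among the 91 members. All 4 lie close together within chr8:45329968-45333922 and count separately only because their peaks do not overlap. The first in rank, chr8:45331834-45332702 in intron 1, had 7.11-fold in library 1 and 7.87-fold in library 2. A region that spans the TSS, chr8:45332994-45333922, had 9.77-fold in library 1 and 4.52-fold in library 2. The remaining 2 regions lay further into intron 1. One, centred 1707 bp after the TSS, had 4.44 and 4.50-fold in libraries 1 and 2, and the other, centred 2579 bp after it, had 3.01 and 7.87-fold. The libraries therefore ordered the 4 regions differently, with the promoter highest in library 1 and close to the lowest in library 2. The next gene, Klkb1, starts 37.4 kb from the best region.

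**Figure D2:**
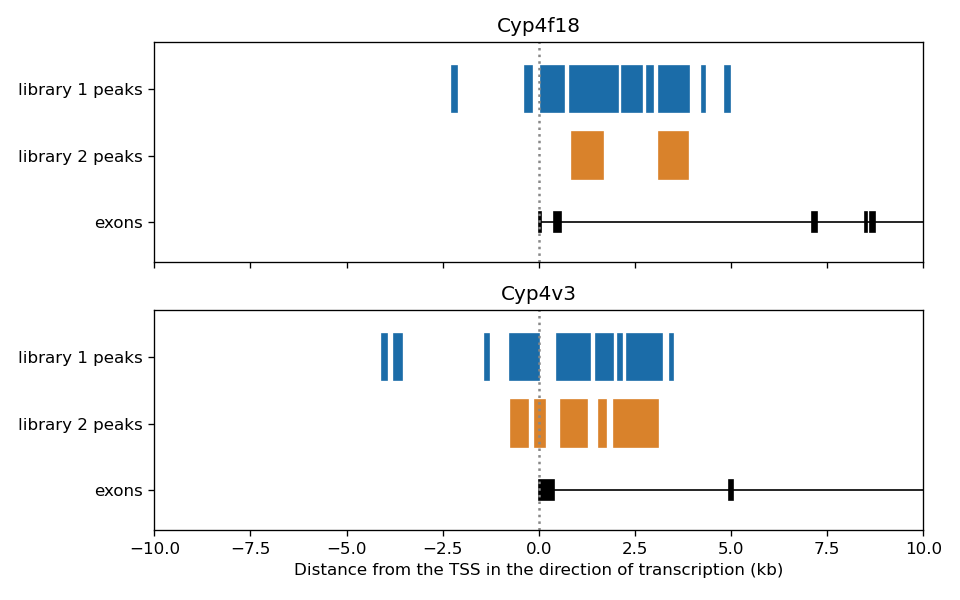
Peaks of library 1 (blue) and library 2 (orange) and exons (black) within 10 kb of the TSS of Cyp4f18 and Cyp4v3, by distance in kb along the direction of transcription (horizontal axis). At Cyp4f18 both library 2 peaks lie in intron 2, between 0.855 and 3.88 kb after the TSS. At Cyp4v3 the 5 library 2 peaks begin before it and run to 3.11 kb after it.

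Cyp4f37, a member of the leukotriene and fatty acid ω-hydroxylase subfamily, had the best-ranked Cyp region. It lies between genes at chr17:32607835-32608961, 12.9 kb before the TSS, with 12.4-fold in library 1 and 8.70-fold in library 2. Its rank among all regions, by the lower of its fold percentiles in the libraries, was 1755 of 20233. A second Cyp4f37 region at chr17:32610984-32611725, 9.97 kb before the TSS, had 7.70 and 5.07-fold. Both are intergenic, and the next TSS, that of Cyp4f40, is 50.5 kb from the best region. Cyp4f16 of the same subfamily had a region in intron 2 (chr17:32537691-32538175) with 4.32-fold in library 1 and 4.79-fold in library 2. Cyp4f16 also had 8 library 1 peaks without a library 2 partner, among them one of 6.81-fold centred 2.37 kb before its TSS. Cyp4f13 had a region over its TSS (chr17:32947344-32947689) with 3.85-fold in library 1 and 5.91-fold in library 2.

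The other 20 fatty acid and eicosanoid genes had no consensus region. Among them, Cyp2j11 and Cyp2j5 of the arachidonic acid epoxygenase subfamily had a single library 1 peak each, of 2.96 and 3.26-fold. Cyp2j12 and Cyp2j13 had none in either library, as was so for 15 of these genes in all. Stronger library 1 peaks were nearest to Cyp2u1 (1 peak of 5.28-fold) and Cyp4f17 (3 peaks of up to 4.74-fold), named here after their values were seen.

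Among the genes that handle vitamin D, Cyp2r1, the liver hydroxylase that forms the circulating metabolite, had 1 region (chr7:114562546-114562768). It is centred 315 bp after the TSS, in intron 1, with 4.74-fold in library 1 and 4.24-fold in library 2. The latter is the lowest library 2 value of the 17 regions. Cyp27b1, which makes the active hormone, had 1 library 1 peak of 4.44-fold over coding exon 5 of 9, and Cyp24a1, which degrades it, had no peak.

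Cyp26b1, a hydroxylase that clears retinoic acid, had 2 intergenic regions beyond the end of the gene. The one at chr6:84544237-84544699, 49.3 kb after the TSS, had 7.41-fold in library 1 and 7.59-fold in library 2 and ranked 2901. The one at chr6:84531302-84531685, 62.3 kb after the TSS, had 3.55 and 5.35-fold. The nearest alternative gene starts over 500 kb away, Exoc6b at 525.0 kb from the best region and Dysf at 512.1 kb from the other. Library 1 had 10 peaks nearest to Cyp26b1, and the sequence nearest to its TSSs, 525.1 kb, was the widest of the Cyp genes after that of Cyp7b1 (554.4 kb). Its relatives Cyp26a1 and Cyp26c1 had no peak in either library.

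Cyp7b1, an oxysterol hydroxylase of the alternative bile acid route, had 1 region (chr3:18319520-18319791), 76.3 kb before the TSS. Its fold enrichment was 3.93 in library 1 and 4.79 in library 2, both under the medians of all regions. Cyp7a1, the rate-limiting enzyme of the classic bile acid route, had 1 library 1 peak of 3.52-fold, 17.5 kb before its TSS. Cyp8b1, which steers synthesis to cholic acid, had 4 library 1 peaks, the highest of 5.04-fold, and no library 2 peak. Cyp39a1, another oxysterol hydroxylase, and Cyp46a1, the cholesterol hydroxylase of neurons, had no peak in either library.

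Cyp17a1, the hydroxylase and lyase of androgen synthesis, had 1 region (chr19:46648592-46648981) with 4.46-fold in library 1 and 4.85-fold in library 2. It is centred 24.2 kb from the Cyp17a1 TSS inside intron 3 of Wbp1l, whose own TSS is 25.4 kb away, so the assignment rests on a difference of little more than a kilobase. The other 5 steroid genes had no peak in either library. They are Cyp11a1, which starts steroid synthesis from cholesterol, Cyp11b1 and Cyp11b2, which finish corticosterone and aldosterone, Cyp19a1, the aromatase, and Cyp21a1, whose human counterpart is deficient in congenital adrenal hyperplasia.

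Cyp2w1, a P450 of fetal and tumour tissue, was assigned a region at chr5:139364108-139365269 with 10.96-fold in library 1 and 6.34-fold in library 2. The region lies in intron 2 of 3110082I17Rik, 12.1 kb from the Cyp2w1 TSS and 13.01 kb from the Gpr146 TSS. Its summits were further apart than those of the other 16 Cyp regions. Cyp2s1, an extrahepatic enzyme that oxidises retinoids and eicosanoids, had a region in its own intron 7 (chr7:25805282-25805812), 10.98 kb after the TSS, with 5.65-fold in library 1 and 4.96-fold in library 2. Axl is the next gene, 16.8 kb from that region. Cyp20a1, an orphan P450, had 2 library 1 peaks in intron 1, of 4.74 and 4.15-fold, and Cyp2t4 had none.

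The foreign compound genes had no peak in library 2. Cyp1a1, the classic target of the dioxin receptor AhR, had 1 library 1 peak of 5.63-fold in intron 1, 1295 bp after the TSS. This peak stood at the 76.4 percentile of library 1 fold enrichment and had no library 2 partner. Cyp1a2, its neighbour in the same family, Cyp1b1, which oxidises oestrogens and polycyclic hydrocarbons, and Cyp2a12, a liver steroid hydroxylase, had no peak in either library.

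**Figure D3:**
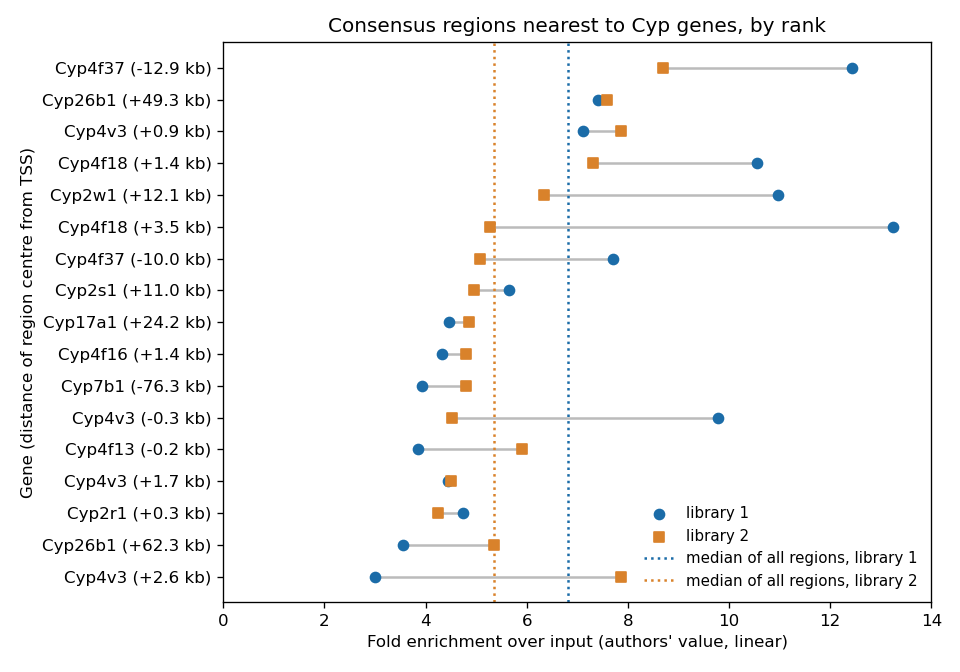
The authors' fold enrichment over input (horizontal axis) in library 1 (blue circles) and library 2 (orange squares) for the 17 Cyp regions, ordered by rank, with the distance of each region from its TSS. Dotted lines are the medians of all regions, 6.81 in library 1 and 5.35 in library 2. Cyp4f37, Cyp26b1, Cyp4v3, Cyp4f18 and Cyp2w1 hold the 5 regions above both medians.

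The 17 regions were of ordinary strength. Their median fold enrichment was 5.65 in library 1 and 5.27 in library 2, against 6.81 and 5.35 for all regions. Their lower-of-both percentile had a median of 45.0, against 53.3. They were 223 to 1234 bp wide with a median of 531 bp, against 626 bp. Summits were a median of 43 bp apart, against 93 bp. In all, 8 were centred within the body of their Cyp gene (47.1%), against 46.7%, and 2 spanned the TSS (11.8%), against 15.02%. More than 3 kb from the TSS lay 9 (52.9%), against 63.5%. A single region was found for 7 of the 11 marked genes (63.6%), against 45.4% of all genes with a region.

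The Cyp4 regions lay mostly nearer to the TSS than the other Cyp regions, with exceptions. The 10 Cyp4 regions, from 5 genes and 4 of them at Cyp4v3, had a median distance to the TSS of 1.57 kb. Within 10 kb lay 9 of them (90%). The 7 regions of other Cyp genes had a median distance of 24.2 kb, and 1 lay within 10 kb (14.3%). Over all regions the median was 8.51 kb, and 52.6% lay within 10 kb. The Cyp2r1 region, at 0.315 kb, and the best Cyp4f37 region, at 12.9 kb, went the other way. The median fold enrichment was 7.41 in library 1 for the Cyp4 regions and 4.74 for the other Cyp regions, and 5.59 and 4.96 in library 2. The fold ranges overlapped in both libraries, from 3.01 to 13.2 against 3.55 to 10.96 in library 1. The differences in distance and fold enrichment were not tested.

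The libraries shared Cyp peaks about as often as other peaks. Of 75 library 1 peaks nearest to a Cyp gene, 19 lay in a consensus region (25.3%, 16.9 to 36.2%), against 26.9% of all library 1 peaks. Of 20 library 2 peaks, 18 did (90.0%, 69.9 to 97.2%), against 82.9%. The median fold enrichment of the Cyp peaks in library 1 was 4.44, the same as over all its peaks.

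Many Cyp genes stand in tandem arrays, and the arrays differed. An array was taken as 5 or more members of a subfamily on a chromosome with gaps of at most 1 Mb, which gave 7 arrays with 53 genes. In the Cyp4f array on chromosome 17 (8 genes in 494.6 kb) 3 genes were marked. This share (37.5%, 95% Wilson interval 13.7 to 69.4%) lay near the 31.6% of all genes, which the interval includes. The array held 22 library 1 peaks and 6 library 2 peaks. These are 44.5 and 12.1 peaks per Mb, against 31.8 and 10.8 over all listed chromosomes. One of its 5 consensus regions was nearest to a gene that is no P450, Zfp871, at 0.099 kb from its TSS. In the other 6 arrays none of 45 genes was marked (0%, with an upper Wilson bound of 7.87%), against 31.6% of all genes. These intervals treat neighbouring genes of an array as independent, which they are not.

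The Cyp2c array on chromosome 19 (14 genes in 1180 kb), which includes arachidonic acid epoxygenases, had 2 library 1 peaks and no library 2 peak. The Cyp2d array on chromosome 15 (8 genes in 423.7 kb) had none in either. The Cyp3a array on chromosome 5 had 1 library 1 peak in 768.0 kb, and the Cyp4a array of fatty acid ω-hydroxylases on chromosome 4 had 1 in 380.3 kb. The Cyp2j array on chromosome 4 had 2 library 1 peaks and 1 library 2 peak, which did not overlap. The Cyp2b array on chromosome 7 had 5 and 2, and both of its consensus regions were nearest to the vomeronasal receptor gene Vmn1r184. Outside the arrays, 8 of 38 Cyp genes were marked (21.1%, 11.1 to 36.3%), an interval that includes the 31.6% of all genes.

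**Figure D4:**
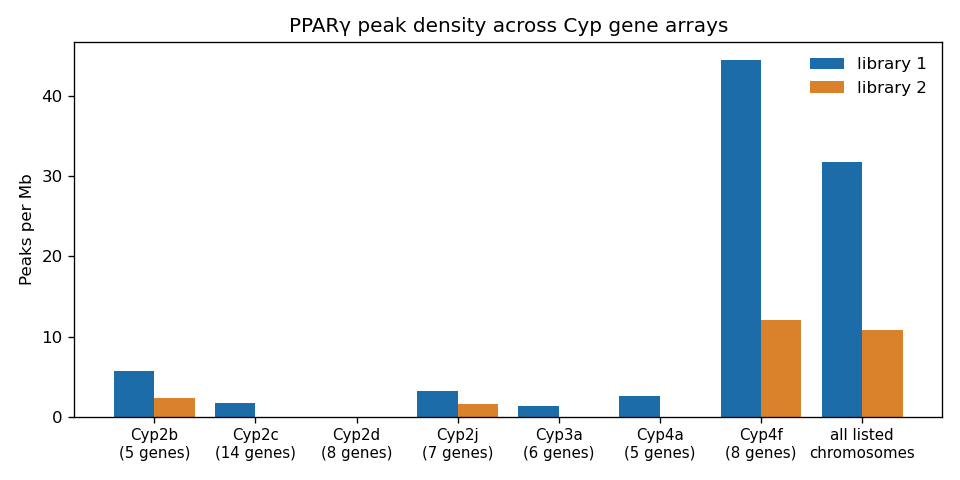
PPARγ peaks per Mb (vertical axis) in library 1 (blue) and library 2 (orange) across the span of each of 7 Cyp arrays, beside all listed chromosomes. The Cyp4f array has 44.5 and 12.1 peaks per Mb. The other 6 arrays have at most 5.71 in library 1 and 2.29 in library 2.

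Copies within an array can be alike, and the authors kept only confidently mapped reads. Of all 100-base words in mm10, sampled at every 500th base, 90.8% occurred once on chromosomes 1 to 19, X and Y. The share was 97.3% in the Cyp4f array, 92.2% in Cyp2j, 88.3% in Cyp2d, 87.6% in Cyp2b, 85.5% in Cyp2c, 84.4% in Cyp3a and 83.4% in Cyp4a. Over the gene bodies the median was 99.9% for marked Cyp genes (lowest 95.5%) and 97.9% for the others (lowest 73.5%, in Cyp2c66). The part of repeated sequence in the low peak counts was not tested.

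Among P450 enzymes that carry other kinds of symbols, Tbxas1, the thromboxane synthase of platelets and macrophages, had 14 regions. The best, centred 62959 bp from its TSS, had 13.7-fold in library 1 and 11.2-fold in library 2. Cyp51, which removes a methyl group from lanosterol in cholesterol synthesis, had 1 region over its TSS, of 4.15 and 3.68-fold, and Ptgis, the prostacyclin synthase, had none. Of 10 redox partner genes, 6 had a consensus region (95% Wilson interval 31.3 to 83.2%, which includes the 31.6% of all genes). Por, the reductase that passes electrons to the P450 enzymes of the endoplasmic reticulum, had 7 regions, the best with 10.4-fold in library 1 and 5.35-fold in library 2. Cyb5r3, cytochrome b5 reductase, had 3, the best with 13.03 and 10.4-fold at rank 763. Cyb5a, Cyb5b, Fdxr, the mitochondrial ferredoxin reductase, and Pgrmc2, a haem-binding membrane protein, had 1 or 2 each. Cyb5r1 and the ferredoxin genes Fdx1 and Fdx2 had none. Of 8 genes for sensors of foreign compounds and bile acids, 2 had a region (25.0%, against 31.6%). Ahr, the dioxin receptor, had 2, the best centred 240215 bp from its TSS, and its partner Arnt had 1. Ahrr, Hnf4a and Nr1h4 (FXR) had none.

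Of 18 genes that handle retinoic acid or vitamin D, 6 had a region (33.3%), a share close to the 31.6% of all genes. Dhrs3, which reduces retinal, had 24. The best, at rank 31 and centred 68410 bp from its TSS, had 21.8-fold in library 1 and 17.6-fold in library 2. The receptor genes Rara, Rarb, Rarg and Vdr had 16, 3, 1 and 2 regions. Rdh10, which makes retinal, had 1, centred 122765 bp from its TSS. Aldh1a1, Aldh1a2 and Aldh1a3, which make retinoic acid, had none.

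Other families of drug metabolism ranged widely. Of 21 glutathione transferase genes, 7 had a region (33.3%, against 31.6% of all genes), led by Gsta4, Gstm4, Gstm1 and Gsto1. Of 20 aldehyde dehydrogenase genes, 5 had one (25.0%). Aldh8a1 was best at rank 34, by a region centred 231000 bp from its TSS and assigned by TSS distance alone. Aldh9a1, Aldh3b1, Aldh3a2 and Aldh4a1 followed. Fmo9 and Fmo5 were marked among 7 flavin monooxygenase genes (28.6%). Ugt1a7c and Ugt1a9 were marked among 21 UDP-glucuronosyltransferase genes (9.52%), both from the Ugt1a locus. Ces4a was the marked carboxylesterase gene of 19 (5.26%), and Sult2b1 the marked sulfotransferase gene of 21 (4.76%). None of 4 epoxide hydrolase genes had a region. These lists hold no member of the Cyp set, and differences between them were not tested.

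**Figure D5:**
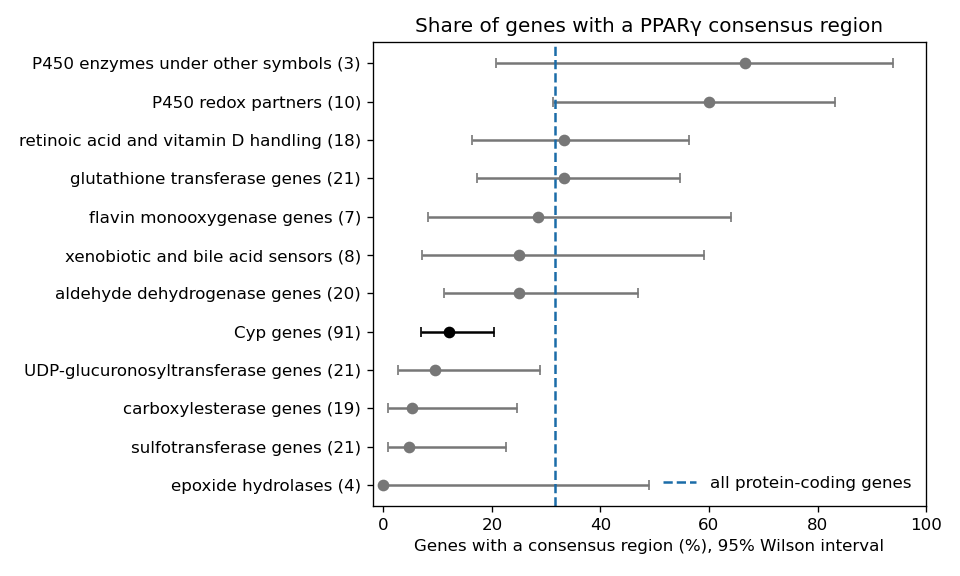
Share of genes with a consensus region (%, horizontal axis) with 95% Wilson intervals for the Cyp genes (black) and 11 related lists (grey), with the number of genes in brackets. The dashed line is the 31.6% of all protein-coding genes. The Cyp interval of 6.89 to 20.4% lies below it, and so do those of the UDP-glucuronosyltransferase, carboxylesterase and sulfotransferase genes. The intervals treat genes as independent, which neighbouring genes of a family are not.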

How the data were processed

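PPARγ HT-ChIPmentation in mouse AMs gave 2 ChIP libraries and 2 input libraries, the latter not analysed here. The submitters' processing notes and the methods name MACS3 for peaks, Bowtie2 for alignment to mm10, cutadapt for trimming, SAMtools, CASAVA and, in version 2.20.0.422, bcl2fastq. They removed duplicates, improperly paired reads and reads of low mapping quality, which can thin reads in near-identical gene copies, and called peaks per library against its input. The deposited peak lists hold the fold enrichment, a linear ratio over input at the summit, and −log10 of the p-value and q-value. Their deposited score was not used. The largest q was 0.0497 in library 1 and 0.0464 in library 2. The lists carry no read counts, so intervals are 95% Wilson intervals over genes or peaks and cover counting error only.

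Peaks of both libraries overlapping by at least 1 bp were merged, and each region with peaks of both was assigned to the nearest curated RefSeq TSS of a protein-coding gene (GRCm38.p6, the assembly of mm10) from its centre. Where several peaks of a library fell in a region, the highest fold enrichment is given. Regions were ranked by the lower of their fold percentiles in the libraries. Sequences were read from that assembly. A region counted as centred in a gene body between the first and last base of the curated transcripts. The Cyp genes, roles, lists, motifs and alternatives were chosen with earlier results of these data known. Every Cyp gene with a region is named, as are up to 4 alphabetically first members per role without one and single-gene subfamilies of families 7 to 51. From other lists all marked genes are named up to 6, otherwise the 4 best ranked, with up to 3 unmarked ones. Some genes that these lists could hold are not reported here. No test between groups was possible with 1 group, and no p-value was computed. Python 3.11.15, NumPy 2.4.6, SciPy 1.17.1 and pysam 0.24.0 were used. Merging, assignment and the count of unique words were tested on simulated data. Alternative settings took a stricter q (0.001), stronger peaks (5-fold), other overlap rules, each library alone, other annotations, distances, windows and, added after seeing the data, GENCODE transcripts and a wider symbol pattern.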

Additional observations from a re-analysis of the deposited data

How the results depend on the processing

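The count of marked Cyp genes stayed at 11, with the same 11 genes, at a q of 0.001, by summit position, within 100 kb, with predicted RefSeq models and with GENCODE basic transcripts (of 92 Cyp genes). It was 5 with 7 regions at a fold enrichment of at least 5, 6 with 9 regions at a reciprocal overlap of 50%, 7 with 9 regions for summits at most 100 bp apart, 6 with 10 regions within 10 kb of the TSS and 7 with 11 regions by gene body with 5 kb on each side. These alternatives shrink or redraw the set of regions by construction. With any curated gene as a target it was 9, without Cyp17a1 and Cyp2w1. Using library 1 or library 2 alone in place of the consensus gave 12 to 25 genes and 20 to 75 peaks. Every symbol of Cyp and a number gave 13 of 99 genes and 28 regions. In each alternative the share of Cyp genes lay below that of all genes.

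The share of regions centred in the Cyp gene body was 70.0% within 10 kb. The median distance to the TSS was 9.97 kb at a fold enrichment of at least 5, 1.43 kb with summits at most 100 bp apart, 1.41 kb within 10 kb, and 4.92 to 6.73 kb with 1 library. The median percentile was 86.3 at a fold enrichment of at least 5, against 76.8 for all regions, which follows from the filter. No paired analysis was possible because both ChIP libraries belong to 1 group. Read depth is not in the lists, so weak binding near unmarked Cyp genes was not detectable beyond the authors' threshold.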

Other observations

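Cyp2ab1, whose symbol has a pair of letters and so falls outside the member rule, had the nearest TSS to 10 consensus regions, more than any of the 91 Cyp genes. It had 30 library 1 peaks and 13 library 2 peaks. It was chosen for mention after its values were seen. The best region (chr16:20359351-20360601) had 12.4-fold in library 1 and 8.70-fold in library 2 at rank 1765. It lies 34.6 kb before the Cyp2ab1 TSS and within the body of Abcc5, a transporter gene. Of the 10 regions, 5 lie within Abcc5, 2 in introns of Cyp2ab1 and 3 in the sequence before its TSS, among them one centred 0.053 kb before it with 8.59-fold in library 1 and 6.47-fold in library 2.

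Cyp27a1, the mitochondrial sterol hydroxylase left aside by the member rule, had 2 library 1 peaks and no library 2 peak nearest to its TSS. Among lettered gene copies, Cyp3a41a, Cyp3a41b, Cyp4a12a and Cyp4a30b had no peak, and Cyp4a12b had 1 in library 1.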
